A study of Mus musculus with 10 samples.

Results

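Wnt1 and 9 other Wnt ligands were followed across 5 groups of cells taken from mouse midbrain by sorting. The members were the array probes, controls left out, whose gene name in the scanner files was Wnt1, Wnt2, Wnt3, Wnt3a, Wnt4, Wnt5a, Wnt7a, Wnt7b, Wnt10b or Wnt11. There were 12 such probes for the 10 genes, of 55681 probes and 34832 gene names on the array: Wnt1 and Wnt4 had 2 probes each and every other gene had 1. The rule itself uses gene names and no measured value.

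All mice had received the neurotoxin MPTP, which damages dopaminergic neurons, and 3 days after its last injection a unilateral graft of lineage-negative bone marrow haematopoietic stem and progenitor cells (HSPCs) over the substantia nigra pars compacta. Cells were dissociated and sorted 1 week after the graft into RFP+YFP+ hybrids, in which a graft cell had fused with a recipient cell, and RFP+ unfused cells. Each of the 5 groups had 2 replicates, and each replicate was a pool of 2 mice. R26Y hybrids came from HSPCs carrying Cre and RFP in R26Y mice, whose yellow reporter is switched on by Cre. GFAP-Cre hybrids and FoxA2-Cre hybrids came from HSPCs carrying the R26Y reporter in mice that expressed Cre under GFAP, an astrocyte gene, or FoxA2, a gene of the midbrain floor plate and of dopaminergic neurons. In these recipients the yellow colour reports only fusion with a Cre-expressing cell, so the red-only cells may include cells fused with others. The pooled unfused group joined RFP+ cells of the R26Y and GFAP-Cre recipients, and the FoxA2-Cre unfused group held RFP+ cells of the FoxA2-Cre recipients. No group without MPTP or without a graft is among these arrays.

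Wnt proteins are secreted, lipid-modified signals that bind Frizzled receptors. With the co-receptors Lrp5 and Lrp6, the canonical branch stabilises beta-catenin, which then acts with Tcf and Lef factors on target genes. Other branches act through the cytoskeleton or calcium. In the developing midbrain Wnt1 is needed for the midbrain and for dopaminergic progenitors, and Wnt5a promotes the maturation of dopaminergic neurons.

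The arrays of the R26Y, GFAP-Cre and pooled unfused groups shared slide 1, and the FoxA2-Cre arrays shared slide 2, so slide and FoxA2-Cre recipient cannot be told apart. The FoxA2-Cre arrays were dimmer: 20.4% to 50% of probes were marked well above background on an array there, against 64.8% to 87.1% on slide 1. The 75th percentile of signal used for scaling was 176.1 to 754.4 intensity units on slide 2 and 1413 to 2639 on slide 1. Replicates correlated across probes with Spearman's rho of 0.64 in R26Y hybrids, 0.877 in GFAP-Cre hybrids, 0.936 in pooled unfused, 0.626 in FoxA2-Cre hybrids and 0.69 in FoxA2-Cre unfused cells. Ptprc, the pan-leukocyte gene, was well above background on every array. Gfap was well above background on every array of slide 1 and on none of the 4 FoxA2-Cre arrays. Its mean log2 scaled signal was -2.67 ± 0.17 (SD, n = 2) in pooled unfused cells, -3.81 ± 0.55 in GFAP-Cre hybrids and -4.45 ± 0.93 in R26Y hybrids. Foxa2 was well above background on every array, FoxA2-Cre unfused ones included, except those of the FoxA2-Cre hybrids.

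The letters of some member probes come first, chosen for features of their sequence, as the array files give them, 5′ to 3′. Detection by base composition is given further below. The first Wnt1 probe is the member richest in G and C, with its final stop codon in capitals. The second Wnt1 probe and the Wnt3a probe are shown as 30-base stretches: capitals mark the letters AATAAA of the polyadenylation signal in Wnt1 probe 2 and the longest stretch without G or C in Wnt3a. Wnt4 probe 1, whose 60 bases cover 569 positions of the genome, is shown without capitals.
Wnt1 probe 1: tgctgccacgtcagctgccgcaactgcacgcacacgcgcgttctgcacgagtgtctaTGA
Wnt1 probe 2: cttcctctgaggAATAAAatatctattttt
Wnt4 probe 1: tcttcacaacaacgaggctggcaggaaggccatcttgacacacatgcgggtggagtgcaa
Wnt3a: tatgaaagAAATTATTTTAgtttatagtat

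On build mm9, Wnt1 probe 1 lies at chr15:98623276-98623335 on the plus strand, and its first reading frame is open up to the closing TGA, which places it at the end of the coding region. Wnt1 probe 2, at chr15:98624201-98624260, starts 925 bases further along the same transcript, downstream of that stop codon in the 3′ UTR. Wnt10b neighbours Wnt1 on the opposite strand: its probe, at chr15:98602209-98602268, starts 21008 bases from Wnt1 probe 1. Wnt4 probe 1, at chr4:136851690-136852258 on the plus strand, skips 509 genomic positions and so reads across an exon junction, and Wnt4 probe 2, at chr4:136855342-136855401, starts 3143 bases further along the transcript. Wnt2 is at chr6:17938994-17939053 and Wnt7a at chr6:91314653-91314712, both on the minus strand. Wnt3 is at chr11:103679038-103679097 on the plus strand and Wnt3a at chr11:59061556-59061615 on the minus strand. Wnt7b is at chr15:85366896-85366955 on the minus strand and Wnt11 at chr7:106001985-106002045 on the plus strand.

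The 12 probes differed widely in base composition. G and C made up 61.7% of Wnt1 probe 1, more than in 99.1% of all probes on the array, and 23.3% of the Wnt3a probe, where 0.449% of probes had less. The Wnt5a probe shared a stretch of at least 20 bases with 7 other probes on the array, while none of the other 11 Wnt probes shared one. Whether those other transcripts add to the signal at the Wnt5a probe was not tested. AATAAA, searched on both strands, was found on the printed strand of 2 Wnt probes (Wnt1 probe 2 and Wnt7b) and on the other strand of 1. Among all probes, 10.1% held it on the printed strand and 3.74% on the other.

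Of the 12 probes, 7 were well above background on all 10 arrays: both Wnt1 probes, both Wnt4 probes, Wnt5a, Wnt7b and Wnt11. Among all probes 16.6% were. Wnt7a was well above background on 9 arrays, missing in FoxA2-Cre hybrid replicate 2, and Wnt10b on 8, missing there and in FoxA2-Cre unfused replicate 2. Wnt3 was well above background on 6 arrays, all 6 of slide 1 and none of slide 2. Wnt2 was so on 5 arrays, among them both pooled unfused arrays and neither FoxA2-Cre hybrid array. Wnt3a, a canonical ligand, was not well above background on any array. By the looser mark of Feature Extraction, a signal that is positive and significant, 10 of 12 probes passed on all 10 arrays (41.5% of all probes did), Wnt2 passed on 8 and Wnt3a on 2, so Wnt3a and Wnt2 were again the least detected members.

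Detection moved with base composition across the whole array. The share of probes well above background on all 10 arrays was 5.71% where G and C were under 35% of bases, 7.27% from 35% to under 40%, 17.7% from 45% to under 50%, 37.9% from 55% to under 60%, and 68.1% at 60% or more. Across probes, GC percent and mean level correlated with Pearson's r = 0.37 over the 55681 probes, which share the same 10 libraries. The 7 fully detected Wnt probes had a median GC of 46.7% and the other 5 a median of 35%, against 43.3% over all probes. The 4 members at 35% or lower, which are Wnt2, Wnt3, Wnt3a and Wnt10b, were the 4 seen on the fewest arrays. The part of base composition in the detection of single Wnt genes was not tested, and a probe that stayed near background gives no measure of absence of its transcript.

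**Figure D1:**
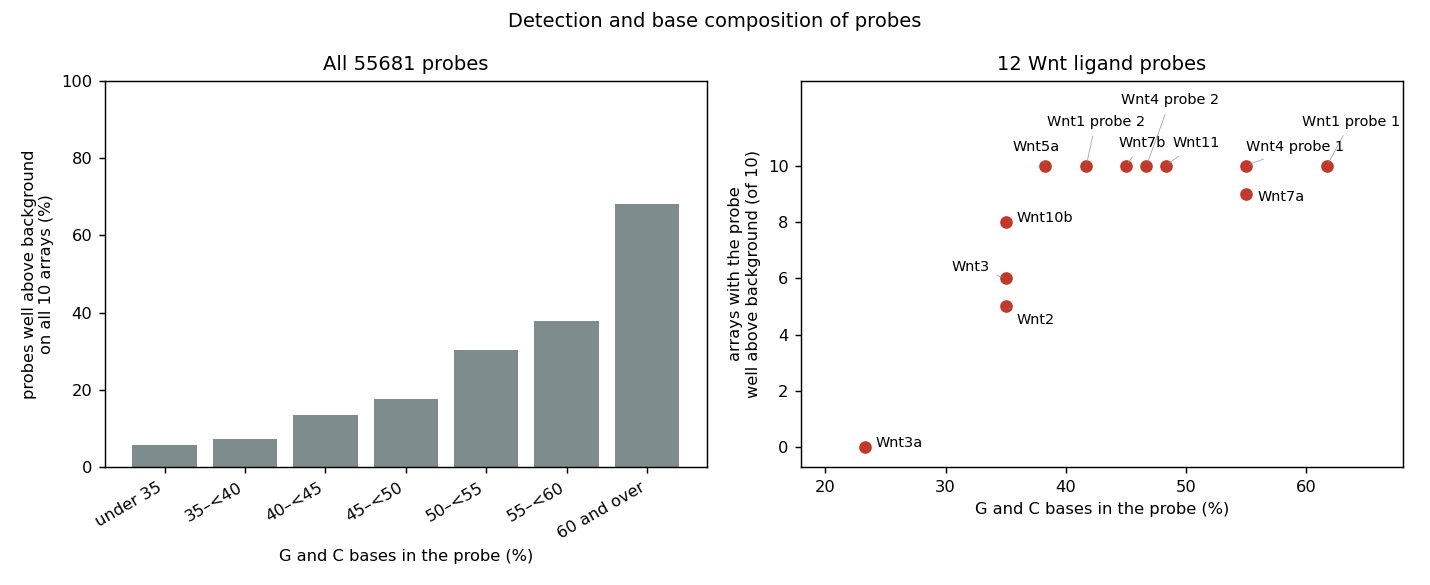
Left, percent of all 55681 probes that were well above background on all 10 arrays (y axis), by the percent of G and C bases in the probe (x axis); the bars rise from 5.71% to 68.1%. Right, for the 12 Wnt ligand probes, the number of arrays (of 10) with the probe well above background against the same percent; Wnt3a, at 23.3%, is on 0 arrays and Wnt1 probe 1, at 61.7%, on 10.

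Levels are given as log2 of the background-subtracted signal relative to each array's 75th percentile, on which a step of 1 is a doubling. Such levels compare arrays for the same probe and say nothing of which gene has more transcript. In bulk sorted samples, fewer expressing cells and less RNA per cell cannot be told apart.

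Wnt1, the canonical midbrain ligand, was read by both its probes in every group. The log2 level of Wnt1 probe 1 was -0.73 and 0.34 in R26Y hybrids, -0.85 and -0.85 in GFAP-Cre hybrids, -0.75 and -0.95 in pooled unfused, -0.12 and 0.66 in FoxA2-Cre hybrids, and 0.23 and -0.10 in FoxA2-Cre unfused cells. R26Y hybrid replicate 2 stood above the other 5 arrays of slide 1, and FoxA2-Cre hybrid replicate 2 above the other 3 of slide 2. On each slide these were also the arrays with the lowest share of probes well above background, 64.8% and 20.4%. The part of array brightness in these levels was not tested.

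Wnt1 probe 2 gave log2 levels of -1.53 and -1.08 in R26Y hybrids, -1.49 and -1.67 in GFAP-Cre hybrids, -1.38 and -1.41 in pooled unfused, -0.98 and -1.14 in FoxA2-Cre hybrids, and -1.12 and -1.14 in FoxA2-Cre unfused cells. Its 10 values spanned 0.69, a range smaller than that of all but 1.39% of the 9250 probes detected on every array, whose median range was 2.04. The probes of Wnt1 did not move in step: the first read 0.46 (pooled unfused replicate 2) to 1.80 (FoxA2-Cre hybrid replicate 2) higher than the second on the log2 scale. With each slide's mean removed, their levels correlated with Pearson's r = 0.619 over 10 arrays.

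The remaining canonical ligands were dimmer against background or varied more. Wnt7a, at -3.07 and -2.33 in R26Y hybrids and -3.12 and -3.09 in GFAP-Cre hybrids, was lower in pooled unfused cells, at -3.56 and -3.32. In FoxA2-Cre hybrids it was -2.36 and, below the detection mark, -4.38, which enclosed the FoxA2-Cre unfused values of -3.52 and -2.36. Wnt7b, which like Wnt7a acts in brain vessel formation, lay between -4.31 and -4.18 on the 6 arrays of slide 1 and between -3.68 and -2.81 on the 4 of slide 2. It was the one member whose arrays did not overlap between slides. Its log2 margin over the lowest signal called well above background on an array was 0.66 to 2.69 on slide 2. On slide 1 that margin was 2.2 to 3.58. The part of array brightness in the higher slide 2 levels was not tested. Among tested probes 8.58% did not overlap between slides, 2.36% with slide 2 higher.

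Wnt10b, a canonical ligand also made by haematopoietic cells, had its highest and lowest log2 level in the same group: -1.54 and -5.12 in FoxA2-Cre unfused cells, the second below the detection mark. The other 8 arrays lay between -4.45 and -3.62. Wnt2 ranged from -7.53 to -5.02 and Wnt3 from -6.75 to -4.35, and their values on arrays where they were not well above background carry no order. Wnt3a lay between -9.16 and -5.46 without passing that mark.

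Among ligands best known for beta-catenin-independent signalling, Wnt11 was the steadiest member under this scaling. Its log2 level was -2.04 and -2.28 in R26Y hybrids, -1.99 and -2.30 in GFAP-Cre hybrids, -2.40 and -2.50 in pooled unfused, -1.97 and -2.18 in FoxA2-Cre hybrids, and -2.16 and -2.21 in FoxA2-Cre unfused cells. The 10 values spanned 0.53, and 0.347% of fully detected probes spanned less. Both pooled unfused arrays were the lowest of the 10. Each of the 6 hybrid arrays lay above the unfused mean of its slide, FoxA2-Cre hybrid replicate 2 by only 0.002, and 3.79% of the 49885 tested probes with a value on every array had all 6 above. FoxA2-Cre hybrids differed from FoxA2-Cre unfused cells in Wnt11 by 0.11 ± 0.49 (log2, SE), and by 0.15 to 0.86 under the other scalings.

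Wnt5a read 2.04 and 1.30 in R26Y hybrids, 2.21 and 1.60 in GFAP-Cre hybrids, 2.04 and 2.08 in pooled unfused, 2.03 and 1.49 in FoxA2-Cre hybrids, and 1.85 and 1.46 in FoxA2-Cre unfused cells. All groups overlapped with at least one other and the range was 0.92 on the log2 scale, with 5.99% of fully detected probes spanning less. The stretches it shares with 7 other probes, given above, apply to these values.

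Wnt4, which acts through either branch depending on the tissue, gave at probe 1 a log2 level of -3.02 and -3.14 in R26Y hybrids, -2.76 and -2.62 in GFAP-Cre hybrids, -3.82 and -2.83 in pooled unfused, -2.57 and -2.25 in FoxA2-Cre hybrids, and -2.79 and -3.47 in FoxA2-Cre unfused cells. All 6 hybrid arrays lay above the unfused mean of their slide, as for the 3.79% of probes given for Wnt11, though the hybrid and unfused arrays overlapped. Wnt4 probe 2 ranged from -4.29 to -2.74, with 4 of 6 hybrids above that mean. The log2 difference between the Wnt4 probes varied from 0.18 to 1.68 over the arrays.

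**Figure D2:**
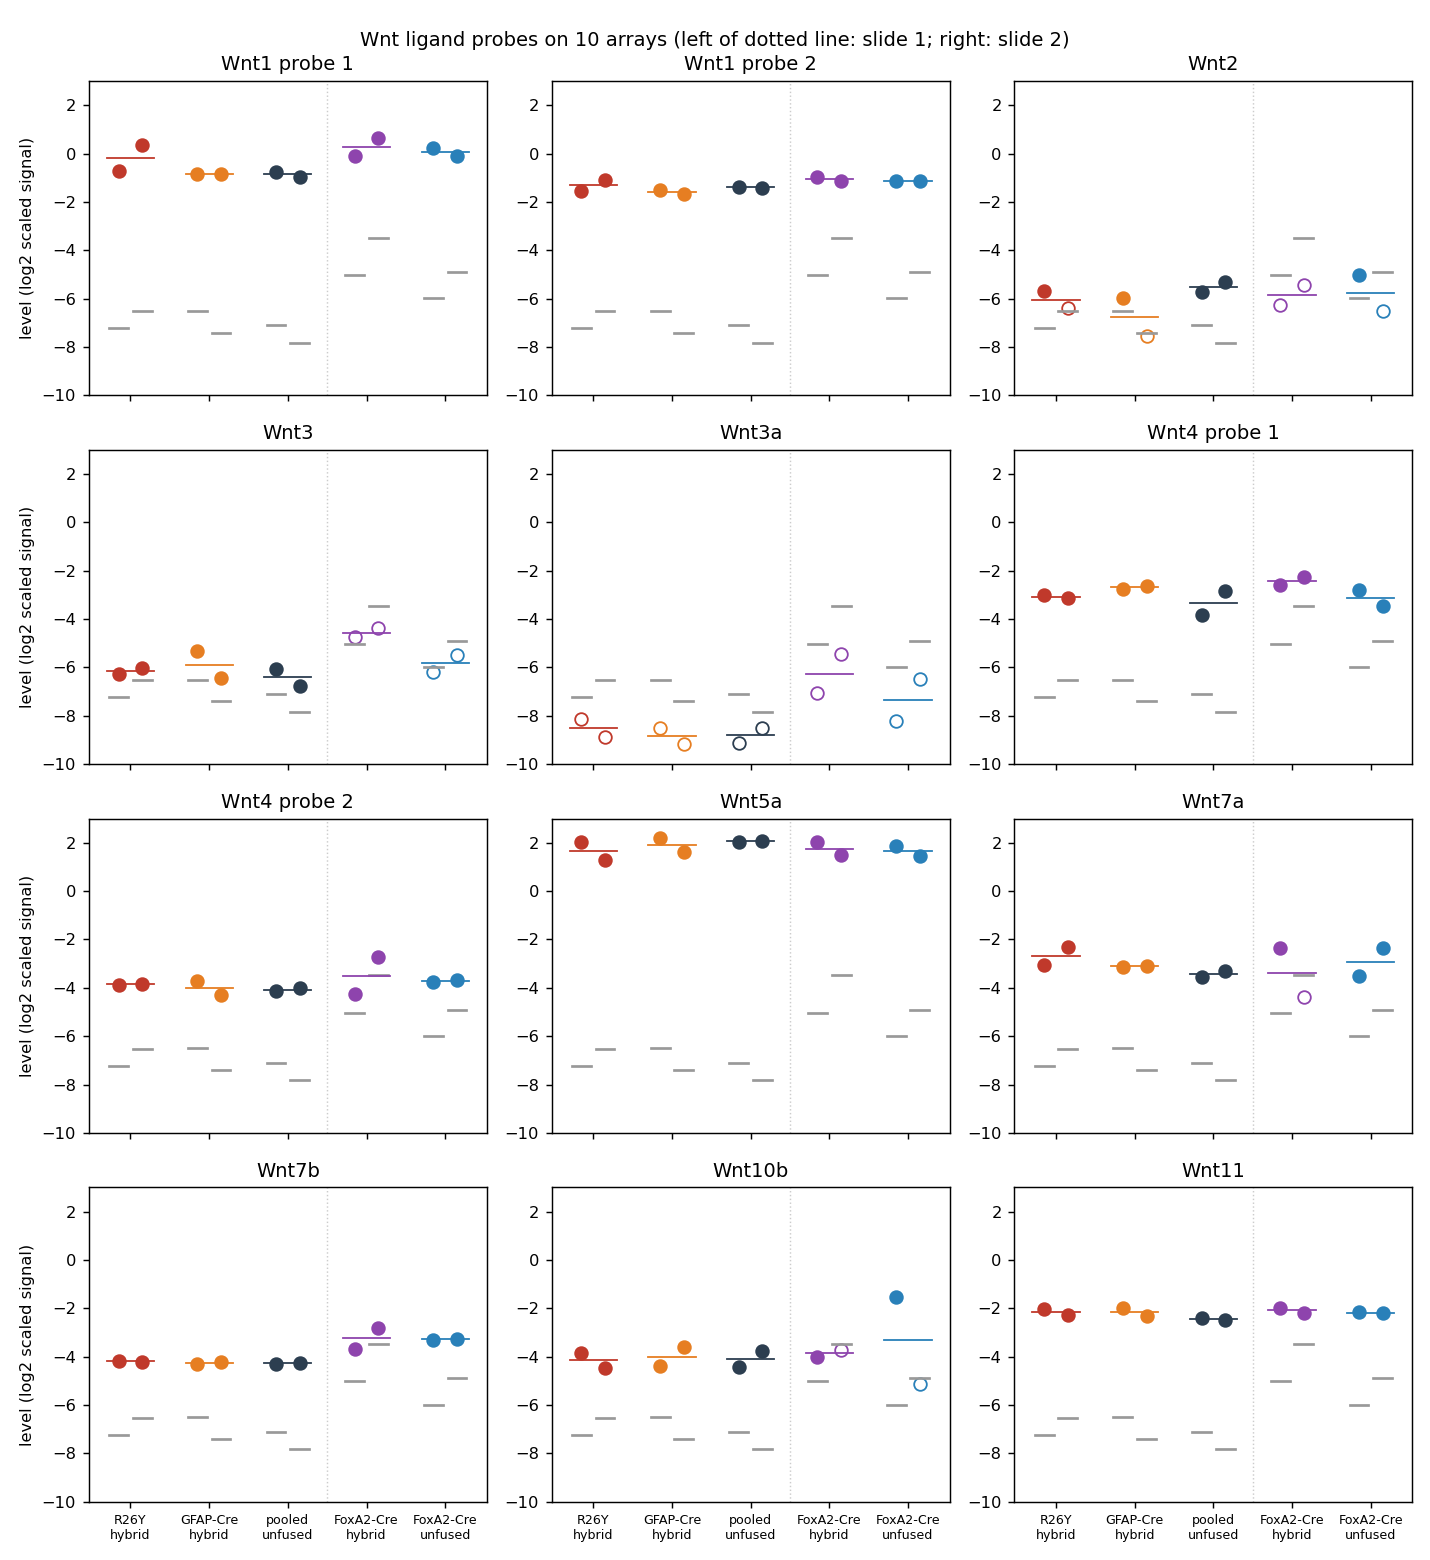
Log2 scaled signal (y axis) of the 12 Wnt ligand probes, 1 panel a probe, in the 5 groups (x axis) with 2 arrays a group. Filled points are well above background, open points are not, coloured lines are group means, and short grey bars mark the lowest signal called well above background on that array; Wnt1 and Wnt11 points lie clear of the grey bars, while every Wnt3a point is open.

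Ordered by group mean among the 7 probes detected on all 10 arrays, FoxA2-Cre hybrids were highest for 6 and pooled unfused cells lowest for 5, an order that crosses slides. How often other fully detected probes follow that order was not counted, so it is not read as particular to Wnt ligands. For Wnt1 probe 1 the order was FoxA2-Cre hybrids (0.27 ± 0.55, SD, n = 2), FoxA2-Cre unfused (0.06 ± 0.23), R26Y hybrids (-0.20 ± 0.76), and then GFAP-Cre hybrids (-0.85 ± 0.00) and pooled unfused (-0.85 ± 0.14). Of its 4 steps between neighbours, 1 exceeded the pooled replicate SD of 0.44. For Wnt1 probe 2 the means ran from -1.06 ± 0.12 in FoxA2-Cre hybrids over -1.13 ± 0.02 in FoxA2-Cre unfused, -1.30 ± 0.32 in R26Y hybrids and -1.40 ± 0.02 in pooled unfused to -1.58 ± 0.13 in GFAP-Cre hybrids, and 2 of 4 steps exceeded the pooled SD of 0.16. For both Wnt4 probes and Wnt5a 0 of 4 steps did.

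Fusion was not accompanied by a change of any Wnt ligand that the test could call. With all 6 hybrid arrays set against the 4 unfused arrays of their slides, 0 of the 11 tested probes passed an adjusted p of 0.05 in limma, with Benjamini-Hochberg adjustment over 50005 probes, and 0 had an unadjusted p under 0.05. Over all probes 0% passed as well, and 2.88% had an unadjusted p under 0.05. Wnt3a was not tested. The 11 log2 differences ran from -0.54 to 0.76 with a median of 0.13, 8 above and 3 below 0, and the median over all probes was 0.04. None of the members had hybrid arrays that did not overlap the unfused arrays, against 0.371% of all probes.

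The intervals show what size of change these arrays allow. Wnt1 probe 2 differed by 0.00 ± 0.29 (log2, SE), with a 95% interval from 0.636-fold to 1.58-fold. Wnt1 probe 1 differed by 0.28 ± 0.37, from 0.682-fold to 2.15-fold. Its difference was -0.04 when the dimmest array of each slide was left out, a setting added after the data were seen. Over all settings tried it ran from -0.04 to 0.47. Wnt5a differed by -0.11 ± 0.34, from 0.551-fold to 1.56-fold, and Wnt11 by 0.22 ± 0.29, from 0.745-fold to 1.81-fold. Under the other scalings the Wnt11 difference was 0.31 to 0.44. Wnt4 probe 1 differed by 0.56 ± 0.35, from 0.861-fold to 2.52-fold, and Wnt4 probe 2 by 0.17 ± 0.37. Wnt7a differed by 0.13 ± 0.49, Wnt7b by 0.05 ± 0.31 and Wnt10b by -0.23 ± 0.63. The adjusted p in limma was 1 for each of the 11 probes. The median SE of the members, 0.37, was smaller than the 0.56 of all probes.

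**Figure D3:**
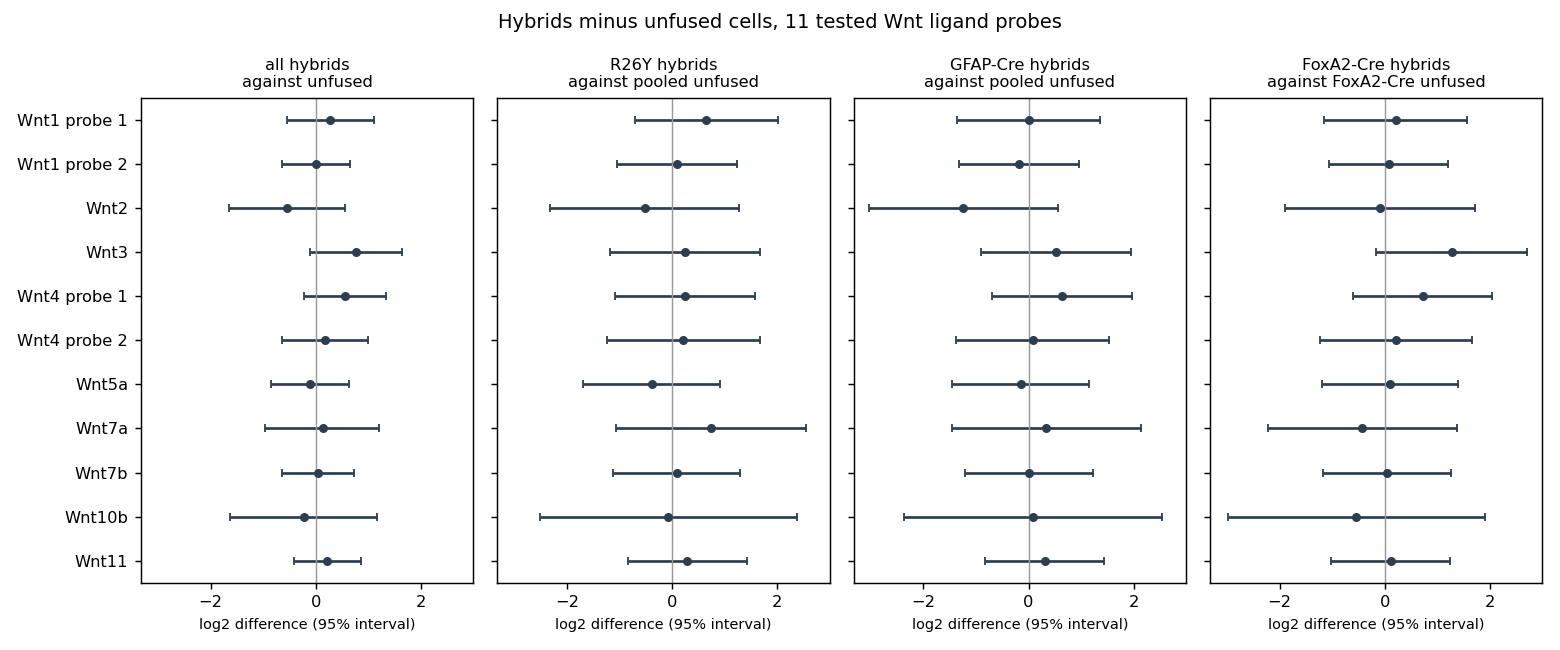
Log2 difference of hybrids minus unfused cells (x axis) for the 11 tested Wnt ligand probes (y axis), for all hybrids and for each kind of hybrid against the unfused cells of its slide. Points are limma estimates and bars their 95% intervals; every bar crosses 0, and those of Wnt10b are widest.

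R26Y hybrids, whose colour reports fusion with any recipient cell, were compared with pooled unfused cells, and 0 of 11 Wnt probes passed, as did 0% of all probes (0 of 11 and 1.57% by unadjusted p). Wnt1 probe 1 differed by 0.65 ± 0.59 on the log2 scale (limma adjusted p 0.999) and Wnt1 probe 2 by 0.09 ± 0.50. Wnt7a differed by 0.74 ± 0.78 and Wnt5a by -0.39 ± 0.56. The arrays of the groups did not overlap for 6 of 11 probes (Wnt1 probe 1, Wnt4 probe 2, Wnt7a, Wnt7b and Wnt11 higher in hybrids, Wnt5a lower), and for 29.8% of all probes. Without the dimmest array of each slide, which leaves a single R26Y hybrid array, Wnt1 probe 1 differed by 0.12 and Wnt5a by -0.02. Over all settings tried, the difference ran from 0.12 to 1.19 for Wnt1 probe 1 and from -1.01 to -0.02 for Wnt5a. The median over all probes was -0.29, and it moved with base composition, from -0.62 in probes with under 35% G and C to -0.05 in those with 60% or more, the class of Wnt1 probe 1. Under the other scalings the median of all probes was between 0.01 and 0.04.

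GFAP-Cre hybrids, in which the recipient partner expressed Cre under an astrocyte gene, were set against the same pooled unfused arrays. Again 0 of 11 Wnt probes passed, and 0% of all probes (0 of 11 and 1.96% by unadjusted p). Wnt1 probe 1 had a mean log2 level of -0.85 in both groups, a difference of 0.00 ± 0.59, which was slightly below 0 under the other scalings. Wnt4 probe 1 differed by 0.64 ± 0.57 and Wnt11 by 0.31 ± 0.49. Wnt2 differed by -1.24 ± 0.78 (limma adjusted p 1), with 1 of 2 hybrid arrays and 2 of 2 unfused arrays well above background. The arrays did not overlap for 5 of 11 probes, and for 34.7% of all probes. Wnt4 probe 1, Wnt7a and Wnt11 were higher in hybrids, and Wnt1 probe 2 and Wnt2 lower. The order of the Wnt2 values is not read, since 1 of the 2 hybrid values was below the detection mark. The R26Y and GFAP-Cre comparisons share their control arrays, so like differences in both, as for Wnt7a (0.74 and 0.34) and Wnt11 (0.29 and 0.31), are not independent.

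FoxA2-Cre hybrids against FoxA2-Cre unfused cells was the one contrast with unfused cells in which probes passed on the whole array, 172 of 50005 or 0.344%, and the probes lower in hybrids made up 0.308% of all. That count moved when single arrays were left out, and was 0 with the row or column on the slide as a term. Both FoxA2-Cre hybrid arrays lay in row 1 of slide 2 and both FoxA2-Cre unfused arrays in row 2. Row and cell class therefore cannot be told apart on that slide, where column coincided with replicate number. Either term also leaves fewer residual degrees of freedom than the main fit, and the part of this in the counts of 0 was not tested. The Wnt ligands were not among the called probes: 0 of 11 passed, and 0 of 11 had an unadjusted p under 0.05, against 7.64% of all probes. Wnt1 probe 1 differed by 0.21 ± 0.59 and Wnt1 probe 2 by 0.07 ± 0.50 on the log2 scale. Under the other scalings these differences were larger, from 0.25 to 0.73 and from 0.11 to 0.51. All settings tried gave -0.33 to 0.73 for Wnt1 probe 1 and -0.25 to 0.51 for Wnt1 probe 2. Wnt4 probe 1 differed by 0.72 ± 0.57 (limma adjusted p 0.742) and Wnt10b by -0.54 ± 1.06, the widest error of the members. Wnt3 differed by 1.28 ± 0.62 (limma adjusted p 0.665), but none of these 4 arrays had it well above background, so no fold is given. Among the 11 tested members the groups did not overlap for Wnt3 and Wnt4 probe 1, and among all tested probes for 36.8%, detected on these 4 arrays or not. The order of the Wnt3 values carries no information. The median of the 11 differences was 0.10 and that of all probes 0.43, and over all probes the median fell from 0.89 at under 35% G and C to 0.16 at 60% or more.

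Between GFAP-Cre and R26Y hybrids the test called 0 of 11 members and 0% of all probes (0 of 11 and 3.08% by unadjusted p). Wnt1 probe 1 differed by a log2 difference of -0.65 ± 0.59, with arrays that did not overlap, as for 27.7% of all probes. Without R26Y hybrid replicate 2 and FoxA2-Cre hybrid replicate 2 the difference was -0.12. Over all settings tried it ran from -1.19 to -0.12. Wnt1 probe 2 differed by -0.27 ± 0.50. The test of the hybrid effect in the FoxA2-Cre set against the effect in the other set called 0 of 11 members, against 0.062% of all probes. By unadjusted p these were 0 of 11 and 5.31%. The difference between the effects was -0.12 ± 0.78 for Wnt1 probe 1, with a 95% interval from 0.264-fold to 3.22-fold, and 0.37 ± 0.74 for Wnt5a, from 0.395-fold to 4.25-fold. Changes of a few-fold in either direction therefore lie within these intervals.

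The rest of the pathway was described from lists of genes by role, each gene by its brightest probe. Between all hybrids and the unfused cells, 0 genes of any of the 7 Wnt lists passed. Of 9 other Wnt ligands 8 were tested, 4 above and 4 below 0, and Wnt8b had the smallest p among them, with -0.85 ± 0.41. Of 5 genes of Wnt secretion and inactivation, 4 were tested and all 4 were below 0: Tmed5 and Tmed2, cargo receptors of the early secretory route, by -1.87 ± 1.04 and -2.09 ± 1.89, and Notum, which removes the lipid of Wnt proteins, by -0.27 ± 0.33. Their median was -1.14, against 0.04 over all probes, and -0.09 in GFAP-Cre hybrids alone. The mean log2 level of the 4 genes was -4.75 on R26Y hybrid replicate 2 against -1.17 on replicate 1, and 0.01 on FoxA2-Cre unfused replicate 2 against -3.36 on replicate 1.

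Of 16 receptors and co-receptors 12 were tested, with a median log2 difference of 0.21. The Frizzled receptor Fzd8 differed by 0.84 ± 0.44 and Fzd5 by 0.56 ± 0.44. Of 9 genes of the R-spondin system, which keeps Frizzled receptors on the cell surface, 8 were tested with a median of -0.26. Of 14 secreted inhibitors 13 were tested, 6 above and 7 below 0, and Sfrp1, which binds Wnt proteins, differed by 0.82 ± 0.40. Of 15 intracellular transducers 14 were tested with a median of 0.21, and Ctnnb1, which encodes beta-catenin, differed by 1.06 ± 0.72 but was well above background on 2 of 10 arrays. Of 13 target genes 11 were tested, 7 above and 4 below 0, with a median of 0.10. Birc5, a target that is also a cell division gene, differed by -3.66 ± 1.60 (limma p 0.0453 unadjusted, adjusted p 1) and Nkd2, a feedback inhibitor, by -0.79 ± 0.43.

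In FoxA2-Cre hybrids against FoxA2-Cre unfused cells the same lists held 0 called genes, against 0.344% of all probes. All 12 tested receptors lay above 0 with a median of 0.76, and so did 12 of 13 secreted inhibitors with a median of 0.78. On the FoxA2-Cre hybrid arrays 4 and 3 of the 12 receptors and 5 and 2 of the 13 inhibitors were well above background, so most of these values lie at background and give no size of change. The median of all probes there was 0.43, and 0 of these 25 genes had an unadjusted p under 0.05. Under other scalings the median of all probes fell to as low as 0.03. In R26Y hybrids 10 of 12 receptors were below 0, with a median of -0.49 against -0.29 over all probes. Their mean log2 level was -5.50 on R26Y hybrid replicate 2, where 7 of 12 were well above background, and -3.72 on replicate 1, against -3.90 and -3.95 in pooled unfused cells.

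**Figure D4:**
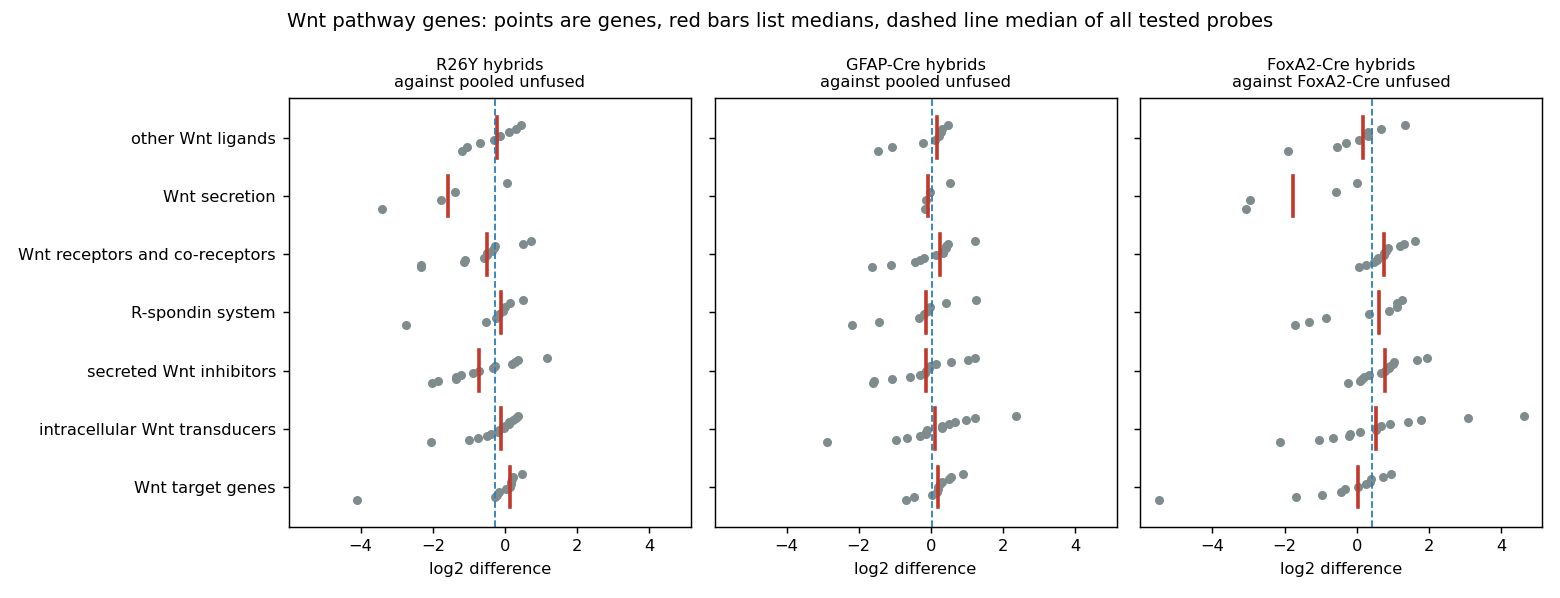
Log2 difference of hybrids minus unfused cells (x axis) for the tested genes of 7 Wnt pathway lists (y axis), in each kind of hybrid. Grey points are genes, red bars list medians and the dashed line the median of all tested probes (-0.29, 0.04 and 0.43); receptors and secreted inhibitors lie right of 0 in FoxA2-Cre hybrids, around a shifted dashed line, and at most 4 of 12 receptors and 5 of 13 inhibitors were well above background on those hybrid arrays.

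Markers of other cell types were read beside these values. In all hybrids against unfused cells, 0 genes of 8 marker lists passed: 9 of 10 neutrophil genes were below 0 with a median log2 difference of -1.86, 7 of 10 tested microglia genes were above 0 with a median of 0.44, and 6 of 8 tested astrocyte genes were below 0 with a median of -0.12. The medians were 0.12 for midbrain dopaminergic neuron genes, 0.30 for neuron genes, -0.04 for oligodendrocyte genes, 0.11 for stem and progenitor cell genes and 0.10 for endothelium and pericyte genes. Mpo, the neutrophil myeloperoxidase, had a log2 level of -2.29 ± 2.26 in pooled unfused cells, against -6.60 ± 1.06 in R26Y hybrids and -6.15 ± 0.17 in GFAP-Cre hybrids on the same slide. On slide 2 it was 1.67 ± 0.17 in FoxA2-Cre unfused cells and -6.21 ± 0.79 in FoxA2-Cre hybrids, where neither array had it well above background. There Mpo was the 1 called gene of the 10 neutrophil genes, at least 60.5-fold lower in hybrids (limma adjusted p 0.0304), and the list's median was -3.30 with 9 of 10 below 0. The bound sets the FoxA2-Cre unfused mean against the lowest signal called well above background on each hybrid array. With slide column, or with slide row, which coincides with cell class on slide 2, as a term 0 probes were called. The part of the cell makeup in the Wnt values was not tested.

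The probes most like Wnt1 probe 1 over the 10 arrays, with slide means removed, were those of Pole3 (Pearson's r = 0.977), Ndufa2 (0.964), Olfr698 (0.964), Nlrp4e (0.962) and Otop2 (0.96), among 35918 probes well above background on at least 6 arrays. Those most like Wnt5a were Txndc8 (0.964), Olfr914 (0.957), Olfr608 (0.946), Alg3 (0.94) and Pkd1l2 (0.94). Wnt1 probe 1 and Wnt5a ran opposite to each other, with r = -0.689. These points share libraries and brightness, and such values are the highest of many compared, so they are given as a description only.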

How the data were processed

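Per the labels' protocols, whole-transcriptome amplification of RNA from the sorted cells gave cDNA, 500 ng of which carried Cy3 onto 1-colour Agilent mouse arrays. Per the file headers, the deposited spot tables come from Agilent Feature Extraction 10.7.3.1, and the processed, mean and background signals are intensities. The authors also deposited a log2 matrix, used as an alternative. Its normalisation is not given in the sources used here. It follows the rank order of signal on each array, and its medians are 7.38 on the slide 1 arrays and 6.26 on the slide 2 arrays. The deposited detection and non-uniformity marks of each spot are 0 or 1 scores, per the file headers.

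From these, log2 of the processed signal was taken minus each array's 75th percentile, which was computed on the 9510 spots detected (marked well above background) on every array. Spots marked non-uniform were dropped, and repeat spots of 1 probe entered as their mean. Probes well above background on at least 2 arrays were tested (50005 of 55681). limma 3.58.1 in R 4.3.3 fitted slide and cell class (7 residual degrees of freedom), or 5 group means (5 residual degrees of freedom), with Benjamini-Hochberg adjustment over all tested probes and a threshold of 0.05. The fits were also run on simulated arrays with planted changes. Those changes were larger than any Wnt ligand difference given here, and the simulated spread was capped. That run therefore does not measure the power to see changes of the size given here. The number of arrays limits the precision, and p-values measure the spread between pools of 2 mice.

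The members and the gene lists were chosen with earlier results of these data known. All member probes are described. Of each list, up to 3 genes with the smallest p in all hybrids may be named, as may any gene that passes. Per probe, the 5 most alike are named. Replicate numbers were not used as pairs in the main fits: deviations of replicate 1 from its group mean correlated between groups with r from -0.0811 to 0.0583. This does not show whether pools with the same number came from the same mice. Probe positions and letters are those of the array files. The sequence of the Wnt5a probe is not reported here. Other scalings, filters, terms and left-out arrays were tried.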

Additional observations from a re-analysis of the deposited data

How the results depend on the processing

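Over the 26 settings tried, each run where it applied, 0 of the 11 Wnt ligand probes passed in any of the 6 comparisons. The settings included other scalings, the authors' matrix, other filters, 1 probe per gene, array weights, slide position and each array left out in turn. The smallest adjusted p in limma over settings was 0.792 for all hybrids, 0.326 for R26Y hybrids, 0.702 for GFAP-Cre hybrids, 0.27 for FoxA2-Cre hybrids, 0.351 for GFAP-Cre against R26Y hybrids and 0.506 for the difference between effects. The fit with the replicate block also called 0 Wnt probes, and 100 rather than 172 of all probes in FoxA2-Cre hybrids. The sign of the difference changed in 25 of 284 values for all hybrids. Counts over all probes moved with single arrays: 0 called probes became 3946 in R26Y hybrids without R26Y hybrid replicate 1, and 3712 in GFAP-Cre against R26Y hybrids. The R26Y group is then the dim replicate 2 alone, assumed to vary like the other groups. On slide 2, slide row coincided with cell class. The 172 called in FoxA2-Cre hybrids became 0 with slide row or column as a term or with the FoxA2-Cre arrays alone, fits that leave fewer residual degrees of freedom. These calls also changed with single arrays. The 172 became 66 or 67 without any 1 of the GFAP-Cre hybrid or pooled unfused arrays, 323 to 654 without any 1 of the other 6, and 898 without the dimmest array of each slide, chosen after seeing the data. The 31 probes called for the difference between effects ranged from 0, among others with the replicate block, to 470 without those dimmest arrays. The cause was not tested. Array number and the dim slide 2 limit what can be seen: the median SE of a member was 0.59 on the log2 scale in comparisons of 2 arrays with 2.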
